A study of Saccharomyces cerevisiae with 4 samples.

Results

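Occupancy by RNA polymerase II was examined over 54 genes of meiosis and sporulation in growing budding yeast (Saccharomyces cerevisiae). The genes were chosen by name from what is known of their roles, but with earlier results of these data known. The choice was therefore not blind to these arrays. Their values come from the probes annotated inside each gene. They make up 54 of the 5493 genes with such a probe, and 269 of 30279 probes inside genes. The measurements came from 4 two-colour tiling arrays of chromatin immunoprecipitation (ChIP-chip), 2 for Rpb4 and 2 for Rpb3. Rpb3 belongs to the core of the enzyme, whereas Rpb4 binds at its periphery together with Rpb7. In the Rpb4 group the strain carried TAP-tagged Rpb4 and in the Rpb3 group it carried TAP-tagged Rpb3, each given as S288c in the labels, and the tag is a handle held by the IgG beads. Both strains were in log phase in YPD, a rich medium, at 25 °C and an OD600 of about 0.8, and were fixed with 1% formaldehyde for 20 min. These are conditions of vegetative growth, and the labels name no sporulation treatment for either group. No untagged strain or mock precipitation was used here, so the comparison for each gene was with the rest of the genome on the same array.

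Meiosis in yeast starts in diploid cells that lack nitrogen and a good carbon source. The transcription factor Ime1 turns on the early genes, whose products break, pair and exchange chromosomes, and Ndt80 later turns on the genes of the divisions and of spore formation. During growth in glucose the early genes are held off by Ume6 with the Rpd3 deacetylase, and middle genes by Sum1 with the Hst1 deacetylase.

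Each value below is a log2 ratio of immunoprecipitated DNA (IP) to whole-cell extract (WCE, the input DNA), averaged over the probes inside a gene, on a scale where 0 is the median probe of the array. A value of 0 is thus not an absence of polymerase, and a value of -1 is a ratio 2-fold under that of the median probe. Because limma fitted one spread per gene over all 4 arrays, the standard error (SE) is the same for Rpb4 and Rpb3. Each array had 41775 data probes, and over genes the pairs of arrays had Pearson correlations between 0.828 and 0.954. The number of arrays limits the precision. Nothing in the labels says that 2 arrays of one subunit are separate cultures, and the p-values therefore cover the spread among these arrays alone, part of which may be technical. The 2 Rpb4 arrays were closer to each other than the 2 Rpb3 arrays, with a median gap per member gene of 0.032 for Rpb4 and 0.181 for Rpb3 (0.035 and 0.140 over all genes).

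Most genes of meiosis and sporulation lay low on every array. Their median was -0.53 and -0.51 on the Rpb4 arrays and -0.50 and -0.60 on the Rpb3 arrays, whereas the median over all genes was 0.05 and 0.06 on the Rpb4 arrays and 0.05 and 0.03 on the Rpb3 arrays. The 4 arrays thus placed the group at a similar depth under the genome. Of the 54 genes, 46 were below the median probe with Rpb4 (limma, adjusted p under 0.05), where 25.8% of 5490 genes were called below, and 2 were above, where 37.9% were. With Rpb3, 43 were below, where 29.2% of all genes were, and 1 was above, where 38.4% were. Both subunits called 41 genes below, 5 were called with Rpb4 alone, 2 with Rpb3 alone and 6 with neither. Those calls do not by themselves show a difference between the subunits. Without the first Rpb4 array the Rpb4 count below was 31, and without the second it was 29, in fits that take the spread of the Rpb3 arrays for the single Rpb4 array. The count of all genes below also dropped there, to 313 and 346 of the 1416 called with all 4 arrays.

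The group occupied the bottom of the genome's range. With Rpb4, 36 of the 54 genes fell in the lowest 10% of all genes and 7 in the lowest 1%, and with Rpb3 these counts were 37 and 7. The 100 lowest genes of the genome held 15 members with Rpb4 and 14 with Rpb3. At the level of single probes, 158 of the 269 probes, or 58.7%, lay under -0.5 on the mean of the 4 arrays, against 9.75% of all probes inside genes. A further 22 probes lay above 0, and 5 of these lay above 0.5. The authors' own flags for bound regions marked 1 member probe on each Rpb4 array (GAS2, the first probe of the gene), and 0 and 1 on the Rpb3 arrays (the first probe of SSP1). The same flags marked 5.31% and 5.40% of all probes inside genes on the Rpb4 arrays, and 5.40% and 4.57% on the Rpb3 arrays.

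**Figure D1:**
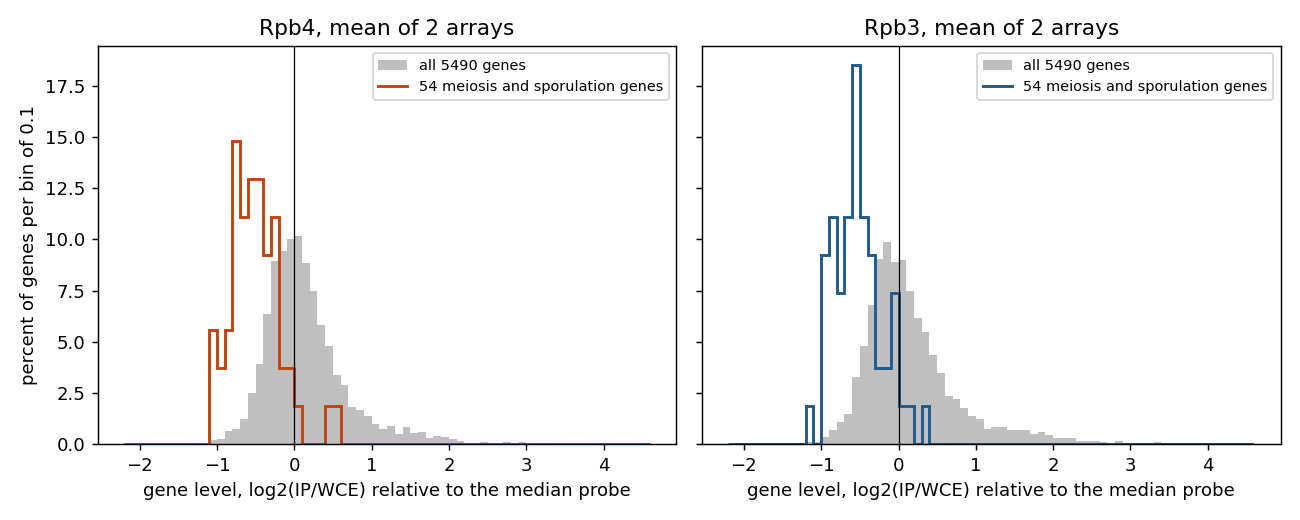
Histograms of the gene level, log2(IP/WCE) with the median probe at 0, as the percent of genes in each bin of 0.1, for Rpb4 (left) and Rpb3 (right). Grey bars are all 5490 genes and the coloured outline is the 54 meiosis and sporulation genes, whose medians are -0.52 with Rpb4 and -0.55 with Rpb3 and lie under those of all genes (0.05 and 0.03).

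The regulators of entry into meiosis were low with the exception of IME4. IME1, the master activator on chromosome 10, had -0.68 and -0.76 on the Rpb4 arrays, against -0.65 and -0.99 on the Rpb3 arrays. IME2, the kinase that acts with and after Ime1, had -0.56 and -0.61 with Rpb4 and -0.65 and -0.94 with Rpb3. NDT80, the activator of middle genes, had -0.41 and -0.43 with Rpb4 and -0.34 and -0.61 with Rpb3. All 3 were under the median probe on each of the 4 arrays and were called below with both subunits, and the groups overlapped for IME1 and NDT80 but not for IME2. None of the 3 was called for the difference between Rpb4 and Rpb3 (limma adjusted p = 0.665 for IME1, 0.342 for IME2 and 0.769 for NDT80).

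IME4 went the other way. It encodes the RNA methyltransferase that marks adenosines in meiotic messages, and its 6 probes span 142401 to 144007 on chromosome 7 in the files' coordinates, whose build is not given in the sources used here. IME4 stood at 0.49 and 0.45 on the Rpb4 arrays, against 0.36 and 0.42 on the Rpb3 arrays. All 4 values were positive, the 2 Rpb4 values were slightly higher, and the gene was called above with both subunits (Rpb4 0.47 ± 0.04, limma adjusted p = 0.00159; Rpb3 0.39 ± 0.04, limma adjusted p = 0.00229; SE, 2 arrays each). Without the first Rpb4 array the Rpb4 level was 0.45 and its adjusted p was 0.0504. Every one of its probes was positive on each array, from 0.06 to 0.73 with Rpb4 and from 0.16 to 1.12 with Rpb3. As background, haploid cells are known to transcribe an antisense RNA, RME2, across IME4, which keeps the sense message off. These arrays read double-stranded DNA and cannot assign the polymerase over IME4 to either strand. The neighbours of IME4, chosen for naming after their values were seen, were not strongly occupied inside the gene. HOS2 was at 0.29 (Rpb4) and 0.05 (Rpb3) and COX13 at 0.00 (Rpb4) and 0.37 (Rpb3). The promoter shared by HOS2 and IME4 was higher at -493 bp from the start of IME4, with 1.09 and 1.18 with Rpb4 and 1.23 and 1.33 with Rpb3. At -60 bp it read 0.54 and 0.51 with Rpb4 and -0.72 and 0.64 with Rpb3. The part of this signal in the level of IME4 was not tested.

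Genes for making the double-strand breaks that start recombination were low to moderately low, with 5 of 6 called below with Rpb4 and 3 of 6 with Rpb3. SPO11, whose product cuts the DNA, was the lowest of them, at -0.76 and -0.73 on the Rpb4 arrays and -0.71 and -1.10 on the Rpb3 arrays. REC114, a partner of Spo11 in break formation, had -0.65 and -0.64 with Rpb4 and -0.65 and -0.83 with Rpb3. Both were called below with each subunit, and the groups overlapped for SPO11 and were barely apart for REC114. REC104, another partner, was lower with Rpb3 on both arrays (-0.23 and -0.26 with Rpb4, against -0.42 and -0.63 with Rpb3), but the difference of 0.28 ± 0.09 did not pass (limma adjusted p = 0.189). MEI4, also a break-forming partner, and MER1, which directs the splicing of meiotic messages, were called below with Rpb4 (-0.30 and -0.27) and not with Rpb3 (-0.08 and 0.00). Neither was called for the difference (adjusted p = 0.266 and 0.157). REC102 passed with neither subunit, and its Rpb3 arrays read -0.01 and -0.56.

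All 5 genes of strand exchange were called below with both subunits. MEI5, which helps load the recombinase Dmc1 together with Sae3, had -0.94 and -0.91 with Rpb4 and -0.82 and -1.0 with Rpb3. MND1, whose product works as a pair with Hop2 in strand invasion, had -0.96 and -0.96 with Rpb4 and -0.84 and -0.88 with Rpb3. The groups overlapped for MEI5 and were separate but close for MND1. HOP2 itself had -0.74 and -0.75 with Rpb4, against -0.39 and -0.49 with Rpb3, and this difference of -0.31 ± 0.07 did not pass (limma adjusted p = 0.10). DMC1, the meiotic recombinase, was less low, at -0.43 (Rpb4) and -0.62 (Rpb3), and SAE3, read by a single probe, stood at -0.34 with Rpb4 and -0.37 with Rpb3.

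The chromosome axis and its cohesin were below with both subunits for 3 of 4 genes. REC8, the meiotic cohesin on chromosome 16 (listed under an older name in the files), was among the lowest genes, at -1.07 and -1.07 with Rpb4 and -0.95 and -0.73 with Rpb3. HOP1, an axis protein, and MEK1, the kinase that acts on the axis, stood at -0.50 and -0.53 with Rpb4 and -0.61 and -0.47 with Rpb3. RED1, the axis partner of Hop1, was split between the groups, with -0.40 and -0.44 on the Rpb4 arrays and 0.08 and -0.15 on the Rpb3 arrays. It was called below with Rpb4 alone, and its difference is described below.

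Synapsis and crossover genes were called below for 5 of 6 with each subunit. MSH4, whose product forms a clamp with Msh5 at crossovers, was lowest of the 6 with each subunit, between -0.78 and -0.77 with Rpb4 and between -0.79 and -0.74 with Rpb3. ZIP1, the central element of the synaptonemal complex, stood at -0.61 with Rpb4 and -0.64 with Rpb3. ZIP2, MSH5 and SPO22 (also known as ZIP4) lay between -0.45 and -0.39 with Rpb4 and between -0.57 and -0.50 with Rpb3. The exception was SPO16, a partner of the Zip proteins read by 2 probes, with -0.28 and -0.24 on the Rpb4 arrays and -0.11 and 0.41 on the Rpb3 arrays. The 2 Rpb3 arrays of SPO16 were on opposite sides of 0, and neither subunit gave a call.

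The 4 genes of the meiotic divisions were all called below with both subunits and had a median of -0.77 with Rpb4 and -0.85 with Rpb3. AMA1, the meiotic activator of the anaphase-promoting complex, had -0.88 and -0.89 with Rpb4 and -0.82 and -1.04 with Rpb3. MAM1, the monopolin subunit that makes sister kinetochores face one pole, averaged -0.82 with Rpb4 and -0.83 with Rpb3. SPO13, which keeps sister chromatids together in the first division, averaged -0.73 with Rpb4 and -0.87 with Rpb3, and CSM4, which helps telomeres lead chromosome movement, was the least low, at -0.37 with Rpb4 and -0.46 with Rpb3.

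Among 13 genes of the prospore membrane and spore formation, 9 were called below with Rpb4 and 9 with Rpb3, and the class ran from the lowest of the 54 genes by the mean of the 4 arrays to values at the median probe. PFS1, a gene of spore formation on chromosome 8, had -1.03 and -1.05 with Rpb4 and -1.0 and -1.24 with Rpb3. SPO20, the membrane-fusion protein of the prospore membrane, had -0.87 and -0.86 with Rpb4 and -0.77 and -1.03 with Rpb3. Both stood low on every array, with overlapping groups. SPO74, a part of the meiotic spindle pole plaque, GIP1, a regulatory subunit of the Glc7 phosphatase, and SPO75 lay between -0.71 and -0.51 with Rpb4 and between -0.69 and -0.60 with Rpb3. The kinase gene SPS1, SSP1 of the leading edge of the prospore membrane and SPO1, related to phospholipases, lay between -0.51 and -0.33 with Rpb4 and between -0.45 and -0.36 with Rpb3. SMK1, the sporulation MAP kinase, was called with Rpb3 alone (-0.26 with Rpb4, -0.49 with Rpb3), and SPO77 with Rpb4 alone (-0.28 with Rpb4, -0.10 with Rpb3).

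The remaining members of that class sat at the median probe. SPO19, a meiosis-specific protein of the prospore, had 0.03 and -0.03 with Rpb4 and 0.04 and -0.26 with Rpb3. SSP2, which activates Smk1, had -0.01 and -0.08 with Rpb4 and 0.02 and -0.09 with Rpb3, and SPO73 had -0.05 and 0.06 with Rpb4 and -0.08 and 0.23 with Rpb3. In each of these 3 genes the values straddled 0, the groups overlapped, and neither subunit gave a call.

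Spore wall genes were low, with 8 of 9 called below with Rpb4 and 9 of 9 with Rpb3. CDA1, a chitin deacetylase that makes the chitosan layer, was lowest by the mean of the 4 arrays, at -1.10 and -1.04 with Rpb4 and -0.90 and -0.89 with Rpb3. GAS4, one of the glucan-elongating enzymes of the wall and the lowest of the class with Rpb3, had -0.74 and -0.77 with Rpb4 and -0.81 and -1.03 with Rpb3. The 2 groups were separate for both genes but in opposite directions, and neither difference passed (limma adjusted p = 0.193 for CDA1 and 0.360 for GAS4). DIT1 and DIT2, which make the dityrosine of the outermost layer and lie side by side, stood at -0.67 and -0.59 with Rpb4 and at -0.77 and -0.55 with Rpb3. CDA2, SPS2, SPS22 and SPS100 lay between -0.79 and -0.52 with Rpb4 and between -0.67 and -0.52 with Rpb3. GAS2 was the one wall gene above the median probe with Rpb4, and it was below with Rpb3. Of the other sporulation-specific genes, SPS4 was at -0.58 with Rpb4 and -0.51 with Rpb3, and SPS18 at -0.29 with Rpb4 and -0.21 with Rpb3. SPS19, a peroxisomal reductase gene, was at -0.14 with Rpb4 and -0.35 with Rpb3. All 3 were called below with Rpb4, and SPS4 and SPS19 with Rpb3.

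**Figure D2:**
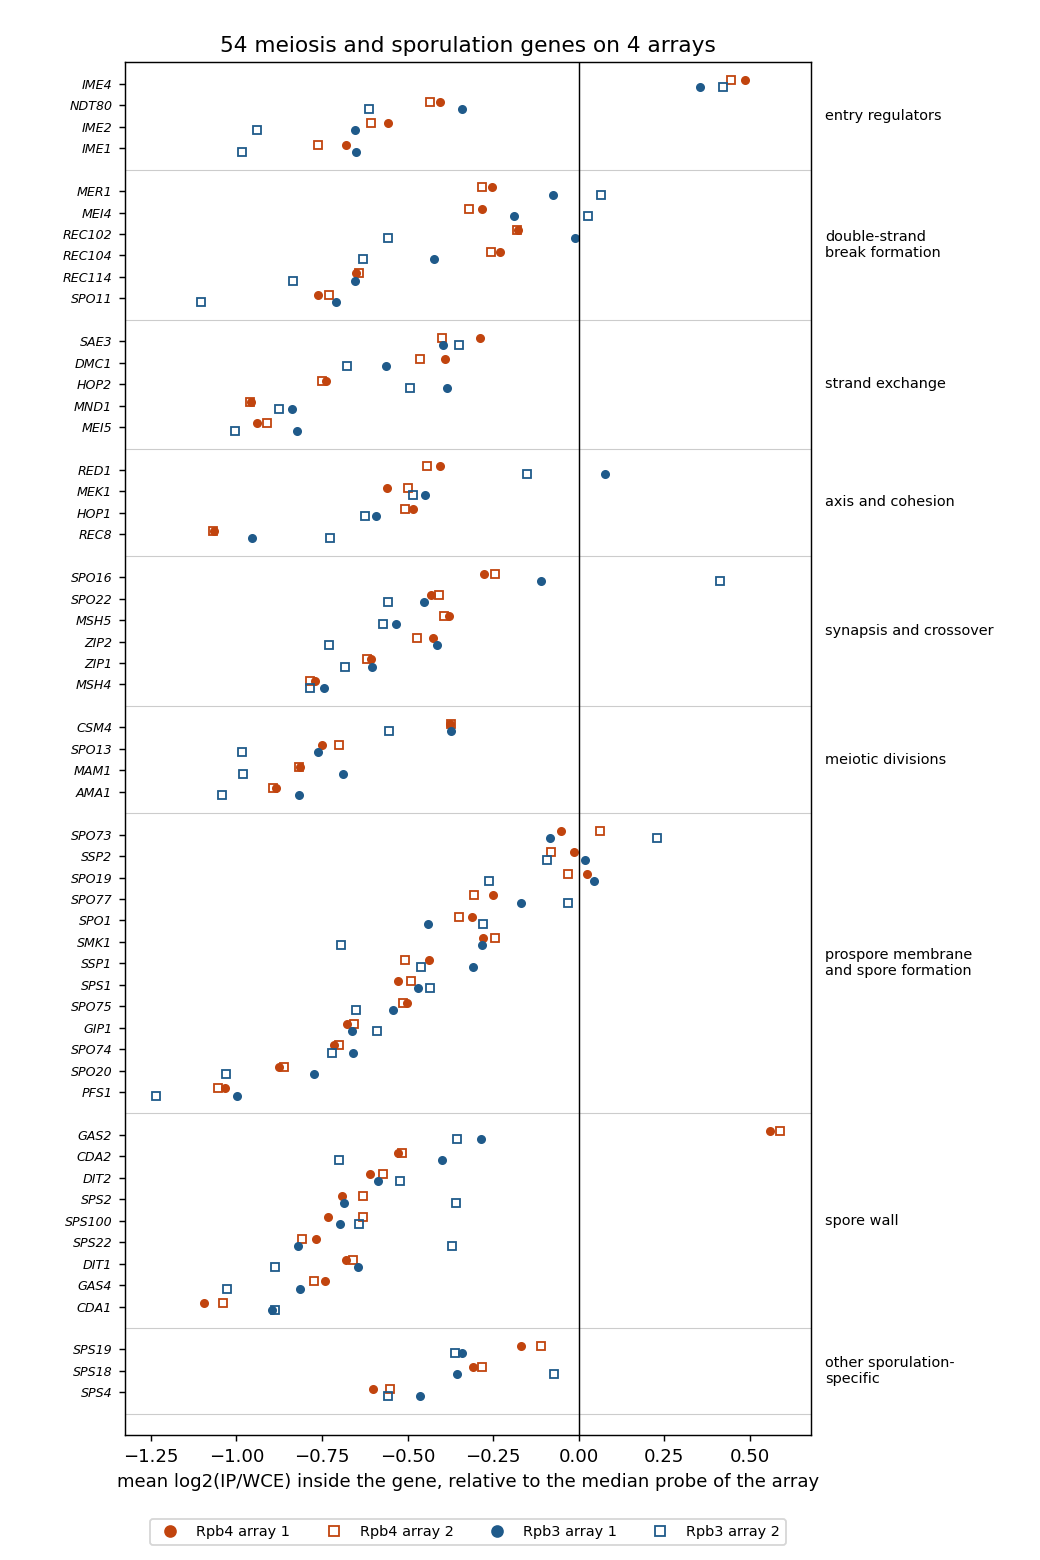
Level of each of the 54 genes on each array, as mean log2(IP/WCE) inside the gene relative to the median probe (vertical line at 0), grouped by role. Orange symbols are Rpb4 and blue symbols Rpb3, filled for array 1 and open for array 2. For 45 genes all 4 symbols lie left of 0, and IME4 alone has all 4 to the right.

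Levels with Rpb4 and with Rpb3 were close over most of these genes, and GAS2 was the exception. The median difference, Rpb4 minus Rpb3, was 0.03 over the members and 0.01 over all genes. Of 54 genes, 1 was called higher with Rpb4, where 0.929% of all genes were, and 0 were called lower, where 2.51% were. In either direction 3.44% of all genes were called (limma). An unadjusted limma p under 0.05 was found for 8 of the 54 members and for 1198 of 5490 genes. The 2 Rpb4 arrays lay wholly above or wholly below the 2 Rpb3 arrays for 25 of the 54, and this was so for 60.5% of all genes. Across the 54 genes the levels with the 2 subunits had a Pearson correlation of 0.82, and 0.88 without GAS2. These points share arrays and probes and are not independent.

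GAS2 (YLR343W), a glucanosyltransferase gene that works with GAS4 in the inner spore wall, is on chromosome 12 with probes from 816185 to 817748. It had 0.56 and 0.59 on the Rpb4 arrays, against -0.29 and -0.36 on the Rpb3 arrays. Both Rpb4 arrays were above the median probe and both Rpb3 arrays were below it. The gene was 1.86-fold higher with Rpb4, a log2 difference of 0.89 ± 0.06 (SE, 2 against 2 arrays; limma adjusted p = 0.0129). The difference lay in the IP channel, at 0.98 (limma adjusted p = 0.0273; GAS2 was the 1 member called there, as were 3.46% of all genes), and the input differed by 0.10 (adjusted p = 0.147).

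Along GAS2 the subunits parted beyond its 5' end. The probe centred 121 bp into the gene read 1.20 and 1.26 with Rpb4 and 0.93 and 1.59 with Rpb3, so the groups overlapped there. At 650 bp it was 0.26 and 0.28 with Rpb4, against -0.65 and -0.28 with Rpb3, and at 1096 bp it was 0.31 and 0.31 with Rpb4, against -0.84 and -1.64 with Rpb3. Rpb4 had levelled off above the median probe where Rpb3 had dropped well under it. At 1625 bp, near the end of the gene, the probe read 0.50 and 0.44 with Rpb4 and -0.74 and -1.09 with Rpb3. This was the 1 member probe called on its own (difference 1.38, limma adjusted p = 0.0456), where 0.171% of 41563 probes were called higher and 0.736% lower. The separation went on past the gene, to 0.22 and 0.33 with Rpb4 against -0.70 and -0.96 with Rpb3 at 1940 bp, which missed the threshold (limma adjusted p = 0.0595). At 2413 bp the probe read 0.56 and 0.56 with Rpb4 against -0.35 and 0.18 with Rpb3 (limma adjusted p = 0.280). By 2641 bp the groups read -0.38 and -0.41 with Rpb4 and -0.59 and -0.60 with Rpb3. The flanking genes did not show it. YLR342W-A upstream stood at 1.31 with Rpb4 and 1.39 with Rpb3, and RPL26A downstream, a ribosomal protein gene, stood at 1.24 with Rpb4 and 1.42 with Rpb3.

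The GAS2 call rests on its low probes, and it was lost without either Rpb4 array, as most calls over all genes were. Its difference was 0.91 without the first Rpb4 array and 0.88 without the second. Those fits take the spread of the Rpb3 arrays for the single Rpb4 array. When probes in the lowest 10% of intensity were left out, 3 of the 6 GAS2 probes went from each Rpb3 array and 0 from each Rpb4 array, all for low IP and none for low input. The difference was then 0.18 (adjusted p = 0.487), and the Rpb3 level turned to 0.39.

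RED1 and HOP2 came next to passing. RED1 had a difference of -0.39 ± 0.10 (limma adjusted p = 0.136), with higher Rpb3 values over most of its 11 probes. The higher Rpb3 values were not confined to the gene. Its divergent promoter differed by -0.62 at -656 bp and by -0.59 at -377 bp (limma adjusted p = 0.112 and 0.140). The flanking genes YLR262C-A and YLR264C-A differed by -0.15 and -0.17. Within RED1 the difference was -0.27 without the first Rpb3 array and -0.501 without the second. Those fits take the spread of the Rpb4 arrays, which lay closer together, for the single Rpb3 array. Leaving out dim probes gave -0.47 (limma adjusted p = 0.0310). Its input was also 0.16 higher in the Rpb4 strain (adjusted p = 0.0270). HOP2 passed, on the low side with Rpb4, after quantile normalization of the arrays, where 7.09% of all genes were called in either direction. Leaving out an Rpb3 array moved many calls across the genome: without the first, 38 members differed where 62.6% of all genes did, and without the second 9 did where 26.3% of all genes did. Without the first Rpb4 array the RED1 difference was -0.41 and without the second it was -0.37. Those fits lost most calls over all genes, so a lost call there is not particular to the members.

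**Figure D3:**
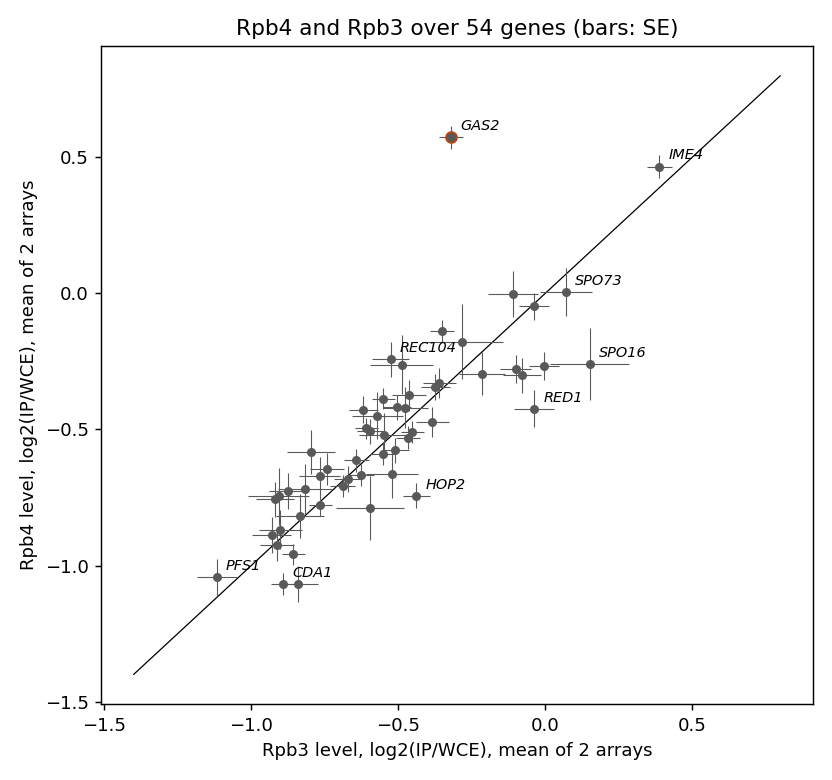
Level with Rpb4 (vertical) against level with Rpb3 (horizontal) for the 54 genes, each a mean of 2 arrays in log2(IP/WCE) with the median probe at 0, with bars of 1 SE from limma and the line of equality. GAS2 (orange) lies far above the line, at 0.57 with Rpb4 and -0.32 with Rpb3, and IME4 lies near the line at the upper end.

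Chromatin was sheared to fragments longer than the spacing of the probes, so each probe also reads DNA from its surroundings, and strongly occupied neighbours of the members were looked for. A gene was taken as strongly occupied when its mean over the 4 arrays was above 1. Of the 108 flanking positions of the 54 genes, 11 (10.2%) held such a gene, and 8.31% of all genes were strongly occupied. The median flanking gene lay at -0.15, under the 0.05 of all genes. The strongly occupied neighbours were the ribosomal protein genes RPL43B (beside IME1), RPP0 (beside SPO77), RPL26A (beside GAS2), RPL20B (beside SPS4) and RPL5 (beside SPO19). The others were the glucan synthase gene FKS1 (beside SPO77), YLR342W-A (beside GAS2), YLR264C-A (beside RED1), the chaperone gene SSB2 (beside MER1), NHP6A (beside SMK1), a chromatin protein gene, and GND1 (beside SSP1), an enzyme gene of the pentose phosphate pathway.

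The 9 genes with such a neighbour were less low than the rest. Their median over the 4 arrays was -0.23, with 6 called below with Rpb4 and 5 with Rpb3, and the median of the other 45 was -0.57, with 40 called below with Rpb4 and 38 with Rpb3. This is a description, and the part of the neighbours in the levels was not tested. Across the 54 genes the level and that of the higher neighbour had a Pearson correlation of 0.40 and a Spearman correlation of 0.40, over genes that share the arrays. Of the member probes, 3, all in GAS2 and SSP1, lay within 500 bp of a probe of a strongly occupied gene, and they averaged 0.86 and 0.87 with Rpb4 and 0.80 and 1.31 with Rpb3. The other 266 averaged -0.52 and -0.53 with Rpb4 and -0.51 and -0.59 with Rpb3. In genes outside the set that were not strongly occupied, 110 such near probes averaged 0.86 and 0.85 with Rpb4 and 1.15 and 1.28 with Rpb3, and the far ones between 0.02 and 0.03 with Rpb4 and between -0.03 and 0.00 with Rpb3. With those near probes left out, the counts of members below were again 46 with Rpb4 and 43 with Rpb3, and GAS2 was again the 1 member called for the difference.

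In 4 of the 6 genes with a strongly occupied upstream neighbour (GAS2, SPO19, SPO77 and SSP1) the first probe read higher than the last on the mean of the 4 arrays, and in the other two it read lower (first minus last -0.11 in IME1 and -0.22 in SMK1). SSP1 starts beside GND1 (1.22 with Rpb4, 1.32 with Rpb3), which is read in the same direction. Its first probe, 5 bp into the gene, read 0.56 and 0.52 with Rpb4 and 1.18 and 1.86 with Rpb3, and its last, at 1481 bp, read -0.90 and -0.90 with Rpb4 and -0.88 and -1.35 with Rpb3. SSP1 was thus high at its start and low at its end on all 4 arrays. SPO19, after RPL5 (1.90 with Rpb4, 2.11 with Rpb3), had 0.35 and 0.36 with Rpb4 and 0.53 and 0.43 with Rpb3 at 227 bp, and -0.30 and -0.42 with Rpb4 and -0.44 and -0.95 with Rpb3 at 496 bp. Its place at the median probe was the mean of 1 positive and 1 negative probe. Over those 6 genes first minus last had a median of 0.71, and over the 47 others with at least 2 probes a median of -0.22.

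**Figure D4:**
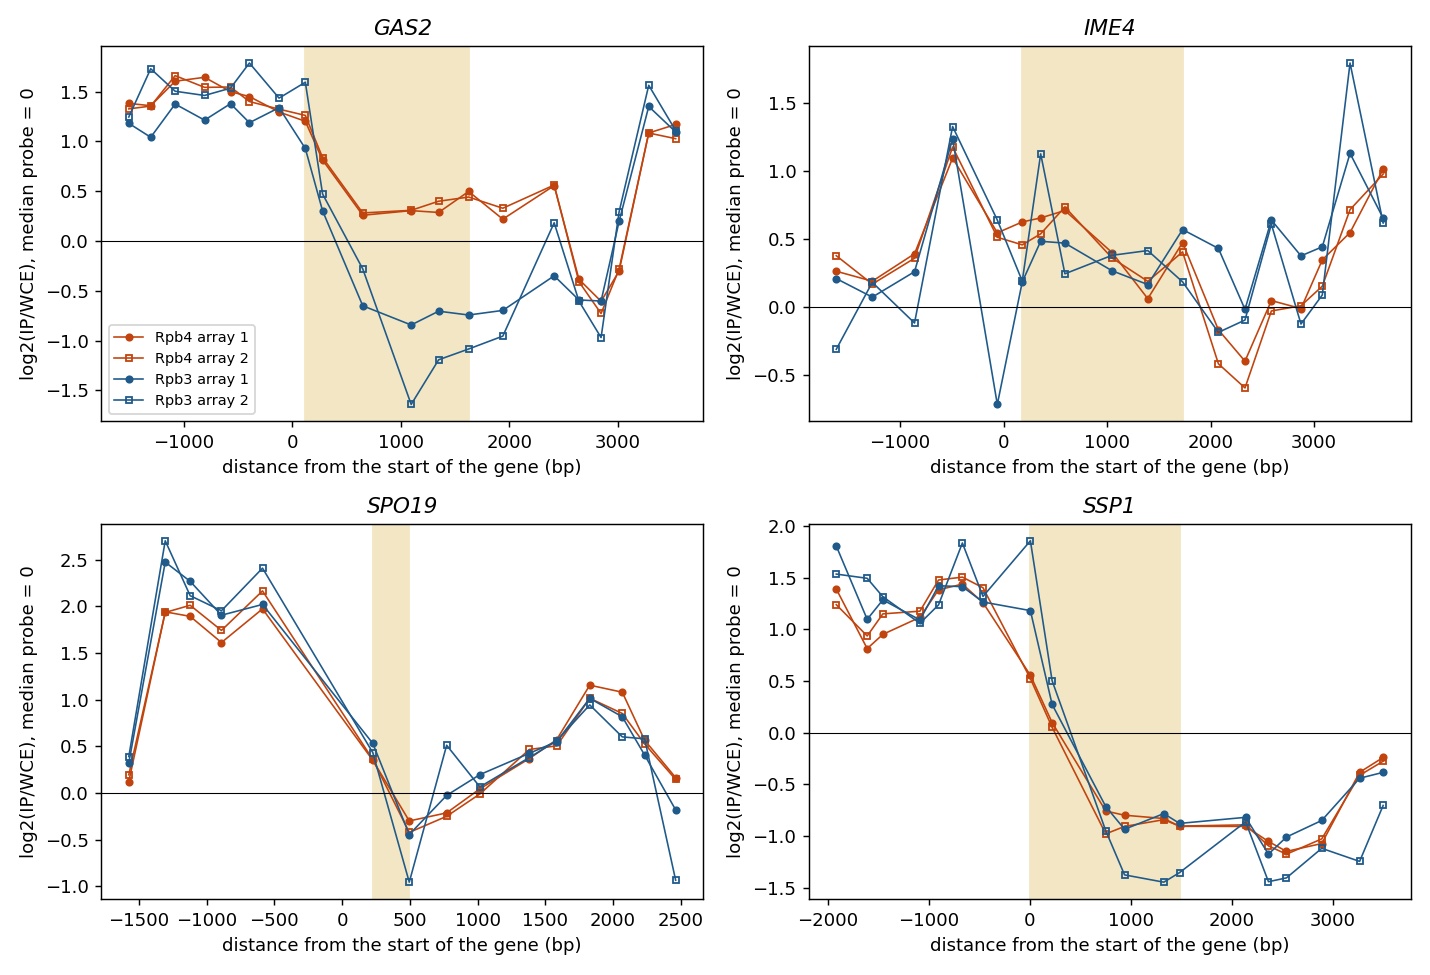
Single-probe log2(IP/WCE) with the median probe at 0 against distance from the start of the gene in bp, for GAS2, IME4, SPO19 and SSP1, with the span of the probes inside the gene shaded. Orange lines are Rpb4 and blue lines Rpb3, filled for array 1 and open for array 2. SSP1 and SPO19 run down from a strongly occupied neighbour on all 4 arrays, the Rpb4 and Rpb3 lines of GAS2 part after its first probes, and IME4 is above 0 at each probe inside the gene.

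Upstream regions were read by probes that are not part of the gene levels. Promoter minus gene body does contain the gene level, and a low gene body by itself raises it. The counts below are thus not independent of the low levels above. Divergent pairs of members (HOP1 and SPO22, DIT1 and DIT2, SPS18 and SPS19) also share promoter probes, which count for both genes. Of 50 members with promoter probes, 23 had a promoter above their own gene body, where 28.9% of 5037 genes did, and 8 had one below it, where 35.8% did (limma, mean of both groups, adjusted p under 0.05). The median promoter level was still low, at -0.48 for members and 0.03 for all genes. Promoter minus gene body had a median of 0.14 over the members and -0.06 over all genes. In either direction 31 members were called with all 4 arrays, to be read beside the shares of all genes given above for each direction.

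The largest excess was at SPO19, whose promoter read 1.82 and 1.75 with Rpb4 and 2.25 and 2.70 with Rpb3, or 2.19 ± 0.13 over the gene body (limma adjusted p = 0.000402). SPO77 followed, with 1.38 and 1.36 with Rpb4 and 1.81 and 2.23 with Rpb3, an excess of 1.88. SSP1 had an excess of 1.59 and SMK1, which shares a divergent promoter with NHP6A, one of 1.58. All 4 of these promoters adjoin a strongly occupied gene, and their levels were high on each array. At DMC1 the promoter was 0.97 and 0.90 with Rpb4 and 1.08 and 0.91 with Rpb3, an excess of 1.49 ± 0.05. The gene before DMC1, PDA1 (chosen for naming after its value was seen), read 0.69 with Rpb4 and 0.73 with Rpb3, under the level taken as strong.

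The promoters of the master regulators differed from their genes too. The IME1 promoter averaged 0.02 and 0.05 with Rpb4 and -0.10 and 0.02 with Rpb3 over 7 probes, 0.77 ± 0.09 over the gene body (limma adjusted p = 0.00216). Its highest probe by the mean of the arrays, centred at -579 bp from the start of the gene, read 0.69 and 0.68 with Rpb4 and 0.28 and 0.55 with Rpb3, and the probe at -205 bp read -0.36 and -0.36 with Rpb4 and -0.22 and 0.06 with Rpb3. The signal was thus away from the start of IME1 and not next to it. As background, a noncoding RNA, IRT1, is known to be made across this promoter in haploid cells. The NDT80 promoter had 0.31 and 0.32 with Rpb4 and 0.28 and 0.58 with Rpb3, an excess of 0.82 ± 0.10 (adjusted p = 0.00281), with no strongly occupied gene beside it. MSH5 had an excess of 0.89, SPS1 of 0.57, SPO11 of 0.56 and GAS4 of 0.56.

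Promoters lower than their genes included that of SPO73, by -0.61, the promoter shared by SPS18 and SPS19, by -0.58 and -0.59, and that of CDA2, by -0.43. The 2 probes between SPS18 and SPS19 averaged -0.72 and -0.73 with Rpb4 and -0.83 and -1.08 with Rpb3. The probes between DIT1 and DIT2, another divergent pair of members, averaged -0.75 and -0.76 with Rpb4 and -0.70 and -0.75 with Rpb3. Both shared promoters lay low on all 4 arrays.

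**Figure D5:**
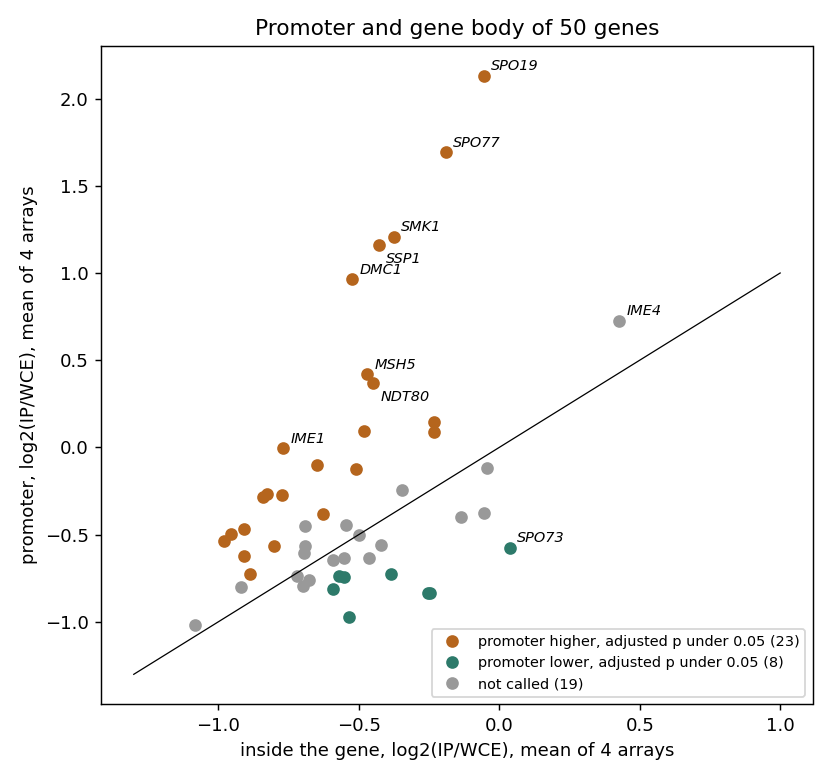
Promoter level against level inside the gene, both log2(IP/WCE) with the median probe at 0 and means of the 4 arrays, for the 50 genes with promoter probes, with the line of equality. Brown points are promoters called above the gene (23), green points those called below it (8) and grey points the 19 not called. SPO19, SPO77, SMK1, SSP1 and DMC1 stand well above the line.

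Input DNA differed between the strains at some members. HOP1 and SPO22, which lie next to each other on chromosome 9, had a lower input in the Rpb4 strain by -0.43 and -0.48 (limma adjusted p under 0.05), where 5.54% of all genes were lower. Over the 197 genes of chromosome 9 the median difference was -0.42 in the input and -0.54 in the IP, and over 5277 genes of the other nuclear chromosomes it was 0.01 and 0.00. The IP of HOP1 and SPO22 was lower by -0.33 and -0.41, and their ratios differed by 0.11 and 0.09, which were not called. In CDA1, SPS22 and RED1 the input was higher in the Rpb4 strain by 0.21, 0.23 and 0.16, where 3.32% of all genes were higher and 8.85% differed in either direction.

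Genes outside the set that act in the same pathway were read for comparison. Beside these lists and the mating type markers below, 25.8% of all genes were called below and 37.9% above with Rpb4. With Rpb3 the shares were 29.2% below and 38.4% above. The lists are short, and none was tested as a set. Of 10 repressors of meiotic genes, 6 were above and 1 below the median probe with Rpb4, and 5 were above and 3 below with Rpb3. The general corepressor CYC8 was highest by the mean of the arrays (0.83 with Rpb4, 0.76 with Rpb3), followed by the deacetylase HST1 (0.89 with Rpb4, 0.64 with Rpb3), and UME6 (-0.33 with Rpb4, -0.43 with Rpb3) and RFM1 (-0.24 with Rpb4, -0.51 with Rpb3) were lowest by that mean. Of 8 genes that signal to meiotic entry, 2 were above and 2 below with Rpb4, and 2 were above and 3 below with Rpb3. By that mean they ran from RIM101 (0.48 with Rpb4, 0.46 with Rpb3) and KAR4 (0.40 with Rpb4, 0.44 with Rpb3) to RIM4 (-0.41 with Rpb4, -0.51 with Rpb3) and SLZ1 (-0.53 with Rpb4, -0.41 with Rpb3). Further meiosis genes were mixed, with 5 of 11 measured below with Rpb4 and 7 with Rpb3, and 1 above with each. PCH2 (-0.65 with Rpb4, -0.53 with Rpb3) and SAE2 (-0.44 with Rpb4, -0.56 with Rpb3) were lowest by the mean of the 4 arrays and CSM1 (0.23 with Rpb4, 0.14 with Rpb3) highest. Further spore genes were low, with 12 of 19 below with Rpb4 and 15 with Rpb3, and the lowest by the mean of the 4 arrays were SPR28 (-0.86 with Rpb4, -0.90 with Rpb3) and LOH1 (-0.91 with Rpb4, -0.78 with Rpb3). EMI2 of that list was called for the difference, at 0.24 and 0.30 with Rpb4 and -0.17 and -0.18 with Rpb3 (difference 0.44 ± 0.06, limma adjusted p = 0.0422).

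The mating type of the strains is not in the labels, and 8 of 10 listed markers had probes, of which 3 were above and 3 below the median probe with each subunit. STE2, the pheromone receptor of a cells, had 2.91 and 2.98 with Rpb4 and 2.77 and 3.32 with Rpb3. BAR1, the a-cell protease, averaged 1.06 with Rpb4 and 1.21 with Rpb3, and STE6, the exporter of a-factor, 1.05 with Rpb4 and 0.74 with Rpb3. These 3 a-cell genes were high on all 4 arrays, and HMRA1, also listed as an a-cell marker, was not (-0.20 with Rpb4, -0.14 with Rpb3). STE3, the receptor of alpha cells, had -0.97 and -0.93 with Rpb4 and -0.93 and -0.86 with Rpb3, and MF(ALPHA)1, an alpha-cell pheromone gene, averaged -0.94 with Rpb4 and -0.97 with Rpb3. The other alpha-cell genes, SAG1 (-0.18 with Rpb4, -0.45 with Rpb3) and MF(ALPHA)2 (-0.15 with Rpb4, -0.28 with Rpb3), also lay under 0, and MFA1 and MFA2 had no probe inside. The meiosis genes themselves, the markers of cells that have entered the program, were low as described. The tagged genes were read on the arrays too, with RPB4 at 0.34 and 0.48 with Rpb4 and 0.80 and 0.96 with Rpb3, and RPB3 at 0.47 and 0.46 with Rpb4 and 0.73 and 1.04 with Rpb3, which is occupancy of these genes and no check of the tag.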

How the data were processed

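Signal came from 4 Agilent arrays of 60-nucleotide probes about 290 bp apart, 2 per TAP-tagged subunit, all on 1 slide. IP was in Cy5 and extract in Cy3 throughout, so a dye effect does not cancel. Per the submitters' processing notes, Agilent Feature Extraction 9.1 read the spots. Per the file headers, the authors deposited foreground, background and normalized intensities of both channels, a log2 ratio, and marks for exclusion and for bound regions. Recomputing showed that the authors' normalized intensity is foreground minus background minus a constant (7.25, 5, 10 and 6), with the extract multiplied by a factor (0.808, 0.928, 0.690 and 0.446; Rpb4 arrays, then Rpb3 arrays), and that their deposited log2 ratio compares those 2 signals. Neither the software behind these columns nor the genome build is given in the sources used here. The series table held the same log2 ratios (medians -0.04, -0.04, -0.04 and -0.01) and was not used further.

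Control spots (3444) and excluded probes (149, 179, 100 and 81) were left out, each array's log2(IP/WCE) was shifted to a median of 0, and probes inside a gene were averaged. Names of 5478 genes matched the R64 table, used for names and neighbours only, and 15 kept the files' names. Of the members, 51 matched by symbol and 3 by systematic name. All 54 were measured on 4 arrays and no filter on low values was applied. limma 3.58.1 (R 4.3.3, lmFit and eBayes) fitted 5490 genes over all arrays, two-sided, with Benjamini-Hochberg adjustment at 0.05, after being tested on simulated data. Promoter minus gene body, single probes, IP and input were fitted likewise. Python 3.11.15 with pandas 2.3.3 and matplotlib 3.10.9 made the tables and figures. Alternatives changed the background, centring, scaling, gene summary, probe filters and arrays used.

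The members, their roles and the other gene lists were chosen with earlier results of these data known. All members could be named, with their strongly occupied neighbours, the 2 highest and 2 lowest genes of each other list and any of these called for Rpb4 minus Rpb3, RPB3, RPB4, STE2 and STE3. Other genes named were chosen after their values were seen.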

Additional observations from a re-analysis of the deposited data

How the results depend on the processing

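Of the levels of GAS2 and IME4 and the differences of GAS2 and RED1, followed through all alternatives, 1 turned its direction, the GAS2 level with Rpb3, which stood at 0.39 (limma adjusted p = 0.0247) when dim probes were left out, a filter that took its 3 probes of lowest IP from each Rpb3 array. Of the members, 24.5% to 30.5% of probes were dim on an array, nearly all in the IP alone, against 6.27% to 7.35% of all probes inside genes, so this filter by its construction takes low members out, and it left 49 members. The median level with Rpb4 (-0.52) became -0.534 with normexp correction, -0.529 centred on probes inside genes, -0.394 centred on the mode, -0.554 without centring, -0.562 after quantile normalization, -0.563 with arrays scaled to one spread, -0.551 with the median over probes and -0.431 without dim probes. The median with Rpb3 (-0.55) became -0.683 with normexp, -0.433 centred on the mode and -0.473 without dim probes. Centring on the mode moved the median of all genes by 0.12 with each subunit, and members minus all genes was again -0.57 with Rpb4 and -0.59 with Rpb3. Normexp moved all genes by 0.11 with Rpb4 and 0.13 with Rpb3. It made the calls over all genes 1108 below and 2382 above with Rpb4, and 1412 and 2441 with Rpb3. Centring on the mode made them 776 and 2589 with Rpb4, and 913 and 2552 with Rpb3, against 1416 and 2079, and 1602 and 2110, as reported. Members below ranged from 39 to 47 with Rpb4 and from 36 to 47 with Rpb3 over these settings.

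Leaving out each array in turn gave 29 to 49 members below and 1 to 2 above with Rpb4, 43 to 47 below and 1 to 3 above with Rpb3, 0 to 38 that differ, medians of -0.528 to -0.510 with Rpb4 and -0.601 to -0.50 with Rpb3, and 20 to 45 members whose promoter differs from the gene body. In these fits the group left with 1 array takes the spread of the other group. Calls over all genes, below and above, also fell without an Rpb4 array and rose without an Rpb3 array, with each subunit. The ranges of member counts are therefore not particular to the members and are no measure of how firm their calls are. Quantile normalization made 2 members differ (GAS2 and HOP2), where 7.09% of all genes did. Without dim probes RED1 took the place of GAS2, where 4.27% of all genes differed, and 2 members were above with Rpb3. Without dim probes the promoter differed in 18 of the 31 members still measured, and the share over all genes is not given here. Centring cannot change the difference between promoter and gene body. Near probes exceeded far ones by 1.5 at 500 bp, 1.78 at 300 bp (1 probe) and 0.75 at 1000 bp (10 probes), and with a strong level of 2 there was no near probe. The slide as a block was not run, since all arrays share 1 slide. No paired analysis was possible because the labels carry no replicate numbers that pair the arrays. The constant dye, the lack of a mock precipitation and 2 arrays a group limit all of these values.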

Other observations

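Pairs of members that lie next to each other did not always share a level. PFS1 (-1.04 with Rpb4, -1.12 with Rpb3) and SSP1 (-0.47 with Rpb4, -0.38 with Rpb3) are convergent. SPS1 (-0.51 with Rpb4, -0.45 with Rpb3) and SPS2 (-0.66 with Rpb4, -0.52 with Rpb3) are in tandem. The first probe of SPS1 read 0.27 and 0.41 with Rpb4 and 0.43 and 0.83 with Rpb3. The gene before SPS1, AGE1 (chosen for naming after its value was seen), read 0.58 with Rpb4 and 0.77 with Rpb3, under the level taken as strong. DIT2 had the opposite slope, with -0.77 and -0.83 with Rpb4 and -0.91 and -0.73 with Rpb3 at its first probe, and 0.06 and 0.08 with Rpb4 and -0.03 and -0.04 with Rpb3 at its last. In SPO74 and SPO75 too the first probe was lower than the last, by -0.92 and -0.81 on the mean of the 4 arrays.

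By position, member probes within 250 bp after the start of the gene had medians of -0.62 and -0.60 with Rpb4 and -0.63 and -0.73 with Rpb3, and those beyond 1000 and up to 2000 bp had -0.48 and -0.51 with Rpb4 and -0.53 and -0.49 with Rpb3. Over all genes the medians of the first bin were -0.12 and -0.09 with Rpb4 and 0.00 and -0.02 with Rpb3. Those beyond 1000 and up to 2000 bp were 0.10 and 0.09 with Rpb4 and 0.01 and 0.01 with Rpb3, so a rise with Rpb4 was not particular to the members. ZIP2, for which an antisense RNA is known in haploid cells, lay below 0 at each of its 7 probes on each array.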
